A study of Capra hircus with 6 samples.

Results

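The zinc finger genes described here are the genes of the deposited gene table whose symbol starts with ZNF, ZFP or ZSCAN followed by a digit, and whose reads sum to at least 10 over the 6 libraries. They were thus chosen by their name and their summed reads. They are 87 of 175 genes with such a name, and of 11374 genes in the table, of which 6608 reach the same number of reads. The read minimum took both groups together and used no difference between them. The other 88 named genes had 1 to 9 reads each, in all 133 treated and 248 control reads, and were not tested. Just inside the minimum lay 7 genes with 10 reads, among them ZNF175, ZNF827 and ZSCAN2, and just outside it 6 genes with 9 reads, among them ZNF18, ZNF215 and ZNF281. A gene with few reads could reach the minimum through the group in which it was high, so counts and medians over the 87 genes are given as a description only.

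The cells were fibroblasts of goat (Capra hircus) fetuses, labelled with an age of 50 days. Treated cells were cultured for 10 weeks with 0.5 µg/mL GO-AgNPs, a composite of graphene oxide and silver nanoparticles, and control cells for as long with 0 µg/mL, both in DMEM/F-12 medium with fetal bovine serum and with a passage every 2 to 3 days. Each group had 3 libraries of total RNA depleted of ribosomal RNA, prepared with a kit that records the strand and read for 150 cycles. The labels do not say how many fetuses or separate cultures the libraries came from, so p-values measure the spread between these libraries, which may be technical.

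Most proteins with such names, though not all, carry C2H2 zinc fingers, short folds held together by a zinc ion. Arrays of such fingers recognise DNA sequence. Many members also carry a KRAB domain, which recruits the corepressor TRIM28 and with it the histone methyltransferase SETDB1, HP1 proteins and DNA methylation, and in human and mouse cells this machinery silences transposable elements. Others carry a SCAN domain, through which they pair with each other, and still others carry neither.

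The annotation of the 87 genes names nucleic acid binding more often than transcription factor activity. Of 80 with a molecular function term in the gene table, 77 had a term for binding of DNA or nucleic acid, and 16 had one for the activity of a DNA-binding transcription factor, activator or repressor. Binding of RNA or mRNA was listed for 5 genes, ZFP36, ZFP36L1, ZFP36L2, ZNF385A and ZNF106. The first of these form the tristetraprolin family, whose fingers bind AU-rich elements in mRNA and promote its decay. KRAB and SCAN domains are given below as known for the human proteins, because the gene table does not list them.

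The gene table was shallow, with 155452 to 218493 reads in treated and 203786 to 245958 reads in control libraries. The 10 most counted genes took 42.1% to 57.6% of the reads in treated and 21.7% to 33.0% in control libraries. The mitochondrial gene ND6, which is encoded on the strand opposite to most others, outnumbered COX1 in each library, by 13.7 to 96.4 times, so it is not known that reads were assigned to the right strand, and reads of overlapping genes cannot be told apart. Among all gene values a count of 4 occurred 4560 times against 2870 for 3 and 2163 for 5, and among the 87 genes 52 times against 21 and 25. Reads may thus come in pairs from 1 fragment, and the intervals given below, which cover counting error only, would then be too narrow. Of 12 fibroblast markers 11 were in the table and tested, 5 of them higher and 1 lower in treated cells, with summed levels of 17575 to 22595 scaled CPM (reads per 1000000 after scaling) in treated and 12182 to 14362 in control libraries. Of 19 markers of epithelial, blood, endothelial, muscle and neural cells 6 were in the table, with summed levels of 44.3 to 154.7 CPM in treated and 49.1 to 59.8 CPM in control libraries. KRT8 and SOX10, markers of epithelial and neural crest cells, were at 0 in every control library and higher in treated cells with 14 and 16 reads (edgeR adjusted p = 0.0118 and 0.00574; 0.0986 for KRT8 without treated replicate 3 and 0.0569 for SOX10 without treated replicate 2). ALAS2, of red cells, was higher with 13 treated and 2 control reads (edgeR adjusted p = 0.0445, up to 0.165 without any one of control replicates 1 to 3 and treated replicates 2 and 3). CDH5, of endothelium, had 4 and 26 reads and CD68, of macrophages, 8 and 4, and neither passed, while DES had under 10 reads. The part of these markers in the results below was not tested. In such bulk samples fewer cells of a type and less RNA per cell cannot be told apart.

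Zinc finger genes took a smaller part of all gene reads in treated than in control cells. The treated libraries held 550, 456 and 499 reads of the 87 genes and the control libraries 1138, 1229 and 898. Of all gene reads this was 0.252%, 0.293% and 0.311% under treatment and 0.558%, 0.4997% and 0.441% without it, and the groups did not overlap. The means were 0.285% ± 0.0303 (SD, n = 3) and 0.4996% ± 0.0589 (SD, n = 3), a ratio of 0.571. Both the most counted zinc finger genes and the most counted genes of the table entered this ratio. ZNF687, ZNF335, ZSCAN29 and ZNF750 together held 42.1% of the reads of the 87 genes, and without them the other 83 genes took 0.196% ± 0.0150 (SD, n = 3) of treated and 0.263% ± 0.0298 (SD, n = 3) of control gene reads, a ratio of 0.747. With the 10 most counted genes of the table taken out of the totals, the ratio for all 87 genes was 0.830. With both taken out the ratio was 1.09, from 0.388% ± 0.0347 (SD, n = 3) in treated and 0.356% ± 0.0130 (SD, n = 3) in control cells. Fewer zinc finger genes were seen in each treated library, with a read for 63, 63 and 62 of the 87, than in the control libraries, with 74, 74 and 70. The scaled library sizes were also smaller, 149680 to 168078 reads in treated and 203661 to 284057 in control libraries. Genes of any kind seen per library were not counted, so this is no result about the family.

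**Figure D1:**
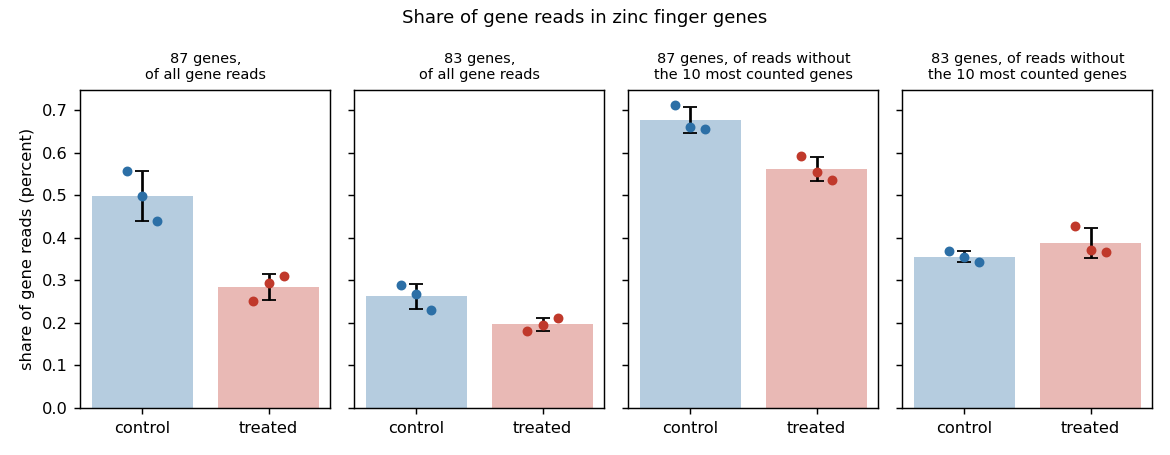
Share of all gene reads taken by zinc finger genes in percent, for the 87 genes and for the 83 left after the 4 most counted are set aside, of all gene reads and of the reads without the 10 most counted genes of the table. Bars are means of 3 libraries, points are libraries and error bars are SD. The control bar is above the treated bar in the first 3 panels (ratios 0.571, 0.747 and 0.830) and below it in the last (1.09).

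Gene by gene, zinc finger genes changed about as often as other genes. By edgeR's quasi-likelihood test, adjusted over the 6608 genes tested at a threshold of 0.05, 11 of the 87 genes (12.6%) were higher and 16 (18.4%) lower in treated cells, against 15.4% higher and 17.6% lower of all genes. These shares are near the background and are no result about the family. At an unadjusted p under 0.05 there were 41 of the 87 genes (47.1%), beside 44.4% of all genes. With no scaling factor 9 of the 87 genes were higher and 21 lower, beside 784 and 1477 of all genes, whose median log2 fold change then moved from -0.05 to -0.35. The treated and control libraries did not overlap in scaled CPM for 41 of the 87 genes (47.1%), 14 with the treated and 27 with the control libraries above, beside 45.9% of all genes. The median log2 fold change, treated over control, was -0.67 in the 87 genes and -0.05 in all genes (-1.01 and -0.35 with no scaling factor). With scaling it was the same with genes that had no read in a group set at a fold against a floor of 3 reads. In the 87 genes it moved between -1.02 without treated replicate 3 and -0.28 without control replicate 3. The medians of all genes in these fits were -0.18 and -0.13. The count of genes that rose was 7 without control replicate 1, without control replicate 2 or without treated replicate 1, and the count of genes that fell was 9 without control replicate 1.

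**Figure D2:**
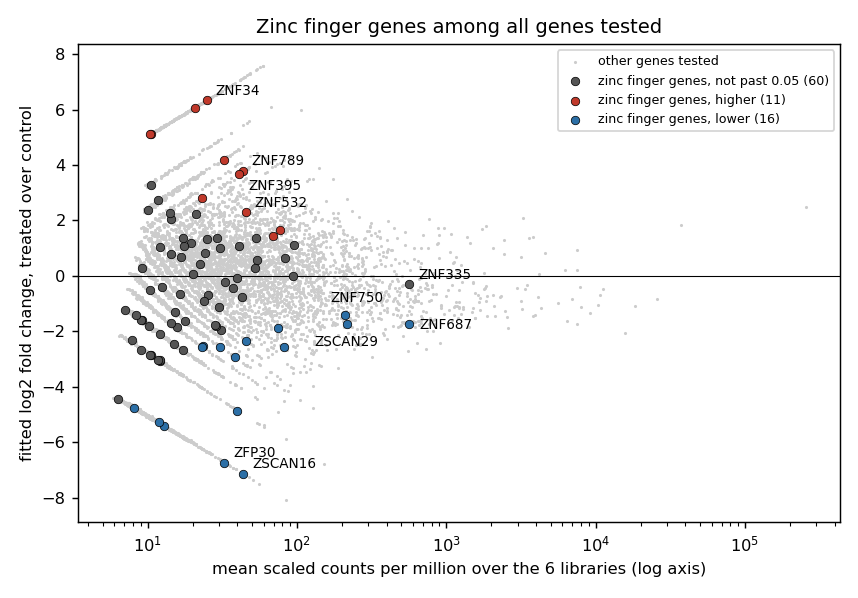
Fitted log2 fold change, treated over control, against the mean scaled CPM over the 6 libraries (log axis) for 6608 genes. Grey dots are other genes, and larger points are the 87 zinc finger genes, red where higher (11), blue where lower (16) and dark grey where not past an edgeR adjusted p of 0.05 (60). The lines of points at the upper and lower left are genes with no or few reads in a group, whose fitted values depend on the prior count.

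The calls differed with the number of reads. Among the 36 zinc finger genes with 10 to 19 reads, 3 rose and 3 fell (8.33% each), beside 14.1% and 11.1% of the 2063 genes of the table in that range. Among the 32 with 20 to 49 reads 6 rose (18.8%) and 4 fell (12.5%), beside 13.9% and 13.5% of 2270 genes. Among the 19 with 50 reads or more 2 rose (10.5%) and 9 fell (47.4%), beside 18.1% and 27.6% of 2275 genes. Of the 16 falls 9 thus lay among the 19 zinc finger genes with 50 reads or more, beside 627 of the 1163 falls over all genes. Whether the share that fell among these 19 genes differs from that of all genes was not tested.

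**Figure D3:**
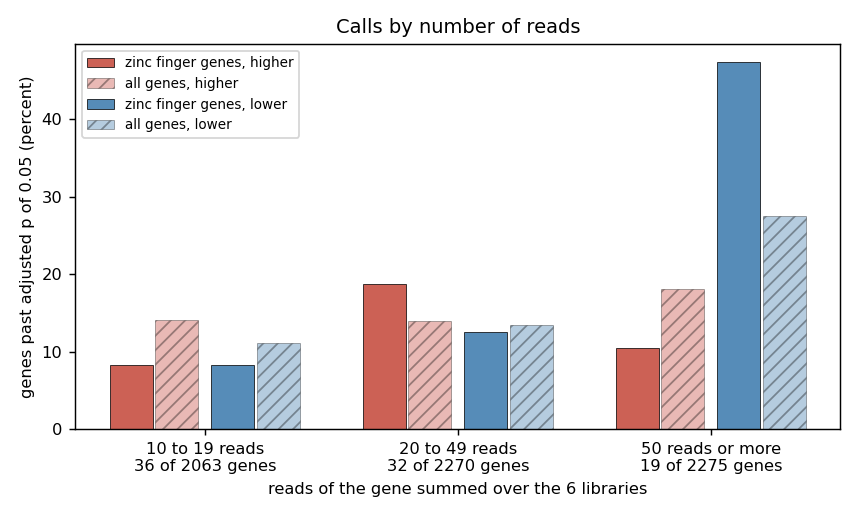
Percent of genes past an edgeR adjusted p of 0.05 by the number of reads summed over the 6 libraries, for zinc finger genes (filled bars) and all genes tested (hatched bars), higher (red) and lower (blue) in treated cells. Among genes with 50 reads or more, 47.4% of the 19 zinc finger genes and 27.6% of all 2275 genes were lower.

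Of the 4 most counted zinc finger genes, 3 fell about 3-fold and 1 did not pass the test. Read numbers also grow with transcript length, so they do not rank the genes by level. ZNF687 (ENSCHIG00000011195), which in human cells binds the chromatin reader ZMYND8 together with ZNF532 and ZNF592, had 34, 53 and 35 treated and 217, 246 and 168 control reads. Every control library was above every treated one. This was 259 ± 82.3 (SD, n = 3) against 862 ± 35.6 (SD, n = 3) scaled CPM, 3.37-fold lower, with a log2 fold change of -1.74 ± 0.22 (SE) and an edgeR adjusted p of 1.22e-06. ZSCAN29, a SCAN domain protein, had 8, 18 and 21 treated and 75, 99 and 69 control reads, without overlap. Its level was 98.6 ± 41.6 (SD, n = 3) against 332 ± 20.3 (SD, n = 3) CPM (log2 fold change -1.75 ± 0.32 SE, edgeR adjusted p = 0.000173). ZNF750, a regulator of epidermal differentiation in human skin, had 19, 15 and 21 treated and 89, 69 and 63 control reads, again without overlap. It was at 115 ± 13.1 (SD, n = 3) and 307 ± 62.3 (SD, n = 3) CPM, 2.62-fold lower (log2 fold change -1.40 ± 0.30 SE, edgeR adjusted p = 0.000967). These calls were kept in each alternative tried that tested the genes. ZNF335, a subunit of a histone H3 lysine methyltransferase complex in human cells, had 92, 66 and 82 treated and 167, 156 and 128 control reads. In scaled CPM its groups overlapped, at 504 ± 72.0 (SD, n = 3) and 622 ± 70.3 (SD, n = 3), and the log2 fold change of -0.30 ± 0.20 (SE) did not pass (edgeR adjusted p = 0.254).

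Among the genes that follow in read number, ZNF79, ZNF212 and ZNF654 did not pass either. ZNF79, a KRAB protein, had 12, 17 and 35 treated and 15, 21 and 9 control reads (log2 fold change 1.13 ± 0.45 SE, edgeR adjusted p = 0.0531), and it passed with the stricter read minimums (adjusted p = 0.0201 and 0.0145), with DESeq2 size factors (0.0499) and without treated replicate 1 (0.0259). ZNF212 had 18, 16 and 10 treated and 22, 28 and 19 control reads, and ZNF654 had 21, 9 and 19 against 18, 16 and 13. For both the groups overlapped in scaled CPM, with log2 fold changes of -0.02 ± 0.42 and 0.66 ± 0.46 (SE).

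Of 30 members whose human protein carries the KRAB domain, 4 (13.3%) were higher, 6 (20%) lower and 20 not past the threshold, near the 15.4% and 17.6% of all genes. ZNF214 fell, with 4, 4 and 3 treated and 42, 30 and 29 control reads. Its groups were far apart at 23.3 ± 4.77 (SD, n = 3) and 140.5 ± 33.9 (SD, n = 3) CPM, 5.98-fold lower (log2 fold change -2.56 ± 0.51 SE, edgeR adjusted p = 0.000427). ZFP30 had no read in any treated library and 10, 27 and 12 in the controls. Against a floor of 3 reads over the treated group it was 10.6-fold lower (edgeR adjusted p = 0.000367). Folds against this floor, here and below, take the reads of the other group as exact, so they are no lower limits. ZNF404 had 0, 2 and 2 treated and 13, 13 and 22 control reads, 7.82-fold lower (log2 fold change -2.93 ± 0.81 SE, edgeR adjusted p = 0.00725). ZNF546 had 1 treated read, in replicate 2, and 13, 45 and 4 control reads, a ratio of 40.4 with a 95% counting interval of 6.99 to 1621 (edgeR adjusted p = 0.00111). Control replicate 2 held most of its reads, and without it the log2 fold change went from -4.87 to -3.75, with an adjusted p of 0.0415. Without treated replicate 2, which held the only treated read, it was -7.07.

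For ZNF583 and ZNF471, also KRAB genes, the call was lost when a library was left out. ZNF583 had 2, 0 and 2 treated and 12, 9 and 16 control reads, 6.03-fold lower (edgeR adjusted p = 0.0232). Its call was lost without control replicate 1, control replicate 3 or treated replicate 2, with an adjusted p of at most 0.0826, while its log2 fold change stayed between -2.99 and -2.05 over all alternatives that tested it (-2.57 as reported). ZNF471 had 1 read in each treated library and 10, 18 and 3 in the controls, a ratio of 6.73 with a counting interval of 2.10 to 34.4 (edgeR adjusted p = 0.0364). That call was lost without any one of control replicates 1 and 2 and treated replicates 1 to 3, with an adjusted p of up to 0.213 and log2 fold changes of -3.04 to -2.06 (-2.57 as reported). ZNF471 is a transcriptional repressor in human cells.

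The KRAB genes that rose were ZNF789, ZNF777, ZNF34 and ZNF12. ZNF789 had 19, 10 and 10 treated reads, and in the controls 4 reads, all in replicate 2. It was at 82.2 ± 33.2 (SD, n = 3) against 4.69 ± 8.13 (SD, n = 3) CPM, 15.0-fold higher (log2 fold change 3.80 ± 0.84 SE, edgeR adjusted p = 0.00118), and the adjusted p was 0.000224 without control replicate 2. ZNF777 had 6, 12 and 1 treated and no control reads, 9.72-fold higher against the floor (edgeR adjusted p = 0.00353, and 0.0427 without treated replicate 2). ZNF34 and ZNF12 lie outside the naming rule and were chosen after their values were seen. ZNF34 had 18, 0 and 6 treated and no control reads, so that treated replicate 2 was at 0 like the controls. It was 12.3-fold higher against the floor (edgeR adjusted p = 0.00292). Without treated replicate 1 its adjusted p was 0.0515, and by the DESeq2 Wald test it was 0.255. ZNF12 had 32, 7 and 17 treated and 9, 6 and 11 control reads and overlapped in scaled CPM (log2 fold change 1.66 ± 0.54 SE, edgeR adjusted p = 0.0199). Its call was lost without control replicate 1, control replicate 2 or treated replicate 1, and without the last its log2 fold change was 0.97 with an adjusted p of 0.252.

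SCAN proteins are few, and of 9 members with the domain in human 3 rose, 3 fell and 3 did not pass (33.3% each). Of all genes 15.4% were higher and 17.6% lower, and whether the 9 genes differ from these shares was not tested. ZNF274, which carries a KRAB domain as well, was among those that did not pass. ZSCAN16 (ENSCHIG00000012295) had 0 treated reads in every library and 19, 23 and 21 in the controls. It was the member with the most control reads and no treated ones, 13.7-fold lower against the floor (edgeR adjusted p = 5.81e-05). ZNF444 was also at 0 in the treated libraries, with only 6, 4 and 2 control reads, 2.61-fold lower against the floor (edgeR adjusted p = 0.0439). That call was lost without any one of control replicates 1 and 2 and treated replicates 1 to 3, with an adjusted p of up to 0.108. It was also lost with no filter and with the replicate number as a block (edgeR adjusted p = 0.0619 and 0.148). ZSCAN29, described above, was the third that fell.

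The SCAN genes that rose had few reads. ZSCAN21 had 6, 4 and 10 treated and 2, 2 and 0 control reads, without overlap, 7.67-fold higher (log2 fold change 2.82 ± 0.96 SE, edgeR adjusted p = 0.025). It was lost without control replicate 2, control replicate 3 or treated replicate 3, with an adjusted p of up to 0.106. It was also lost with the replicate number as a block and among genes without a neighbour (edgeR adjusted p = 0.0679 and 0.0565) and by the DESeq2 Wald test (0.0689). ZSCAN2 had 4, 2 and 4 treated and no control reads, 5.11-fold higher against the floor (edgeR adjusted p = 0.0165). Its call was lost without control replicate 1 or 2, with an adjusted p of up to 0.0537. The replicate number as a block (edgeR adjusted p = 0.0779) and the DESeq2 Wald test (0.0598) lost it as well. ZNF174, outside the naming rule and chosen after its values were seen, had 20, 8 and 1 treated and 0, 0 and 2 control reads, and its libraries overlapped. Its ratio was 22.2 with a counting interval of 5.63 to 192 (edgeR adjusted p = 0.00472), and without treated replicate 1, which held most of the reads, the adjusted p was 0.104. The log2 fold change of ZNF174 ranged from 3.07 without that library to 6.57 without control replicate 3.

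**Figure D4:**
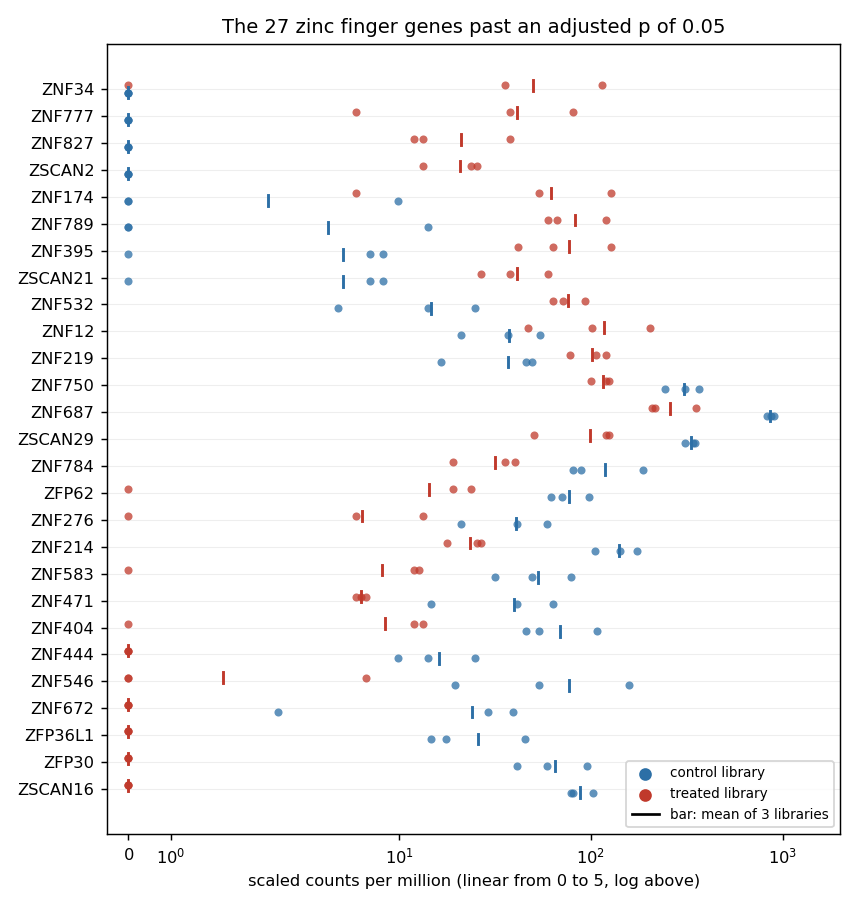
Scaled CPM (linear from 0 to 5, log above) of the 27 zinc finger genes past an edgeR adjusted p of 0.05, from those that rose at the top to those that fell at the bottom. Each point is a library, blue for control and red for treated, and the bar is the mean of 3 libraries. ZNF687, ZSCAN29 and ZNF750 lie far to the right of the others, and in ZNF34, ZNF174 and ZNF12 the libraries of the groups overlap.

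Of the 49 members with neither domain listed, 4 (8.16%) rose, 7 (14.3%) fell and 38 did not pass, beside 15.4% and 17.6% of all genes. ZNF532, a partner of ZNF687 and ZMYND8 in human cells, had 10, 14 and 12 treated and 6, 4 and 1 control reads. At 76.1 ± 15.7 (SD, n = 3) and 14.6 ± 9.94 (SD, n = 3) CPM it was 5.02-fold higher (log2 fold change 2.30 ± 0.67 SE, edgeR adjusted p = 0.00979), while ZNF687 was lower, as given above. ZNF395, which is induced by low oxygen in human cells, had 10, 19 and 7 treated and 2, 2 and 0 control reads, 13.8-fold higher (log2 fold change 3.68 ± 0.82 SE, edgeR adjusted p = 0.00126). Both calls were kept in each alternative that tested them. ZNF219, a cofactor of SOX9 in mouse chondrocytes, had 19, 16 and 13 treated and 4, 13 and 10 control reads (log2 fold change 1.44 ± 0.52 SE, edgeR adjusted p = 0.0352). Its call was lost without control replicate 1 or 2 or treated replicate 1 or 2, with an adjusted p of up to 0.143. It was also lost with no scaling factor and with no filter (edgeR adjusted p = 0.105 and 0.0717) and by the DESeq2 Wald test (0.0947). ZNF827, which recruits the NuRD complex to telomeres in human cells, had 6, 2 and 2 treated and no control reads. Against the floor it was 5.11-fold higher (edgeR adjusted p = 0.0175). It was lost without control replicate 1, control replicate 2 or treated replicate 1, with an adjusted p of up to 0.0774. The replicate number as a block (edgeR adjusted p = 0.0824) and the DESeq2 Wald test (0.0622) lost it as well.

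Among the falls outside the KRAB and SCAN groups, ZFP62 and ZNF784 had the most reads after ZNF687 and ZNF750. ZFP62 had 3, 0 and 4 treated and 15, 20 and 20 control reads, 5.12-fold lower (log2 fold change -2.34 ± 0.71 SE, edgeR adjusted p = 0.0134; 0.0524 without treated replicate 2). ZNF784, chosen after its values were seen, had 3, 6 and 6 treated and 45, 23 and 18 control reads, 3.74-fold lower without overlap (log2 fold change -1.89 ± 0.53 SE, edgeR adjusted p = 0.00811; 0.102 without control replicate 1). ZNF672 had no treated and 7, 1 and 8 control reads, 3.48-fold lower against the floor (edgeR adjusted p = 0.0255). It was lost without control replicate 1 or any one treated replicate, with an adjusted p of up to 0.0646. The replicate number as a block (edgeR adjusted p = 0.0736) and the DESeq2 Wald test (0.0907) lost it as well. ZNF276 had 0, 2 and 1 treated and 10, 6 and 12 control reads, a ratio of 6.08 with a counting interval of 1.88 to 31.3 (edgeR adjusted p = 0.0452), and was lost without control replicates 1 or 3 or treated replicates 1 or 3, with an adjusted p of up to 0.133. In all 4 genes the control libraries lay above the treated ones.

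Of the tristetraprolin genes, the mRNA decay factors among the members, 1 fell and the others did not pass. ZFP36L1 had no treated reads and 11, 5 and 3 in the controls, at least 4.13-fold lower (edgeR adjusted p = 0.0156; 0.0735 without control replicate 1). ZFP36, the family's founder, had 1 treated read, in replicate 2, and 7, 5 and 4 control reads, without overlap (log2 fold change -3.05 ± 1.32 SE, edgeR adjusted p = 0.073), and it passed among genes without a neighbour (0.0461). ZFP36L2 had 8, 14 and 9 treated and 8, 20 and 5 control reads, with overlapping groups and a log2 fold change of 0.58 ± 0.57 (SE, edgeR adjusted p = 0.455). Whether the 3 genes differ in their change was not tested.

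Of 56 zinc finger genes listed for a known role, 42 were in the table and 26 were members, of which 3 (11.5%) were higher and 5 (19.2%) lower, near the shares of all genes. Beside those already described, ZNF598, a ubiquitin ligase that marks collided ribosomes in human cells, had 18, 2 and 7 treated and 4, 13 and 3 control reads and did not pass (log2 fold change 1.08, edgeR adjusted p = 0.25). ZNF622, a factor of large ribosomal subunit maturation in human cells, had 7, 4 and 6 treated and 3, 3 and 4 control reads (log2 fold change 1.32, edgeR adjusted p = 0.214). ZNF207, a spindle assembly factor in human cells, had 0, 2 and 0 treated and 9, 11 and 3 control reads, with an edgeR adjusted p of 0.0676. It passed without control replicate 3 (0.0411), without treated replicate 2 (0.0242), with no scaling factor (0.0451) and among genes without a neighbour (0.0424).

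ZNF217, a repressor amplified in human breast cancer, had 1 treated and 13 control reads and ZNF365 1 and 14, with edgeR adjusted p values of 0.168 and 0.122. ZNF521, a regulator of stem and progenitor cells in mouse, had 1 treated and 15 control reads, 12 of the latter in control replicate 2 (log2 fold change -2.87 ± 1.42 SE, edgeR adjusted p = 0.118). ZNF609 had 12, 2 and 14 treated and 9, 15 and 11 control reads, and ZNF462 6, 6 and 0 against 6, 6 and 2, and neither passed. The 7 members of this list not yet given, ZNF608, ZNF292, ZNF507, ZNF644, ZNF326, ZNF76 and ZNF24, had 10 to 24 reads each and overlapped between groups.

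Reads of a zinc finger gene could include those of a gene that overlaps it or lies within 1 kb, since strand assignment is in doubt. Of the 80 members that RefSeq places on a numbered chromosome, 28 had such a neighbour. Of these 28, 2 rose and 7 fell, with a median log2 fold change of -1.01, and of the 52 without a neighbour 9 rose and 6 fell, with a median of -0.12. Over all genes the medians were -0.20 with and 0.23 without a neighbour, and 14.2% rose and 19.5% fell with one, 18.9% and 13.4% without. The balance turned in another fit. When genes without a neighbour were scaled and tested on their own, 8 of the same 52 members rose and 12 fell, with a median of -0.48. For 12 members a neighbour was itself tested, in 14 pairs, of which 6 changed with the same sign.

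The neighbours of ZNF687 and ZNF750 were higher in treated cells, where these genes were lower. PI4KB, a lipid kinase gene next to ZNF687, had 16, 20 and 20 treated and 11, 12 and 13 control reads and was higher (log2 fold change 1.23, edgeR adjusted p = 0.0372). TBCD, a tubulin folding factor next to ZNF750, had 51, 40 and 40 treated and 31, 47 and 20 control reads and was also higher (log2 fold change 1.06, edgeR adjusted p = 0.00881). ZNF276 moved in the direction of its neighbour FANCA, a DNA repair gene with 100, 89 and 105 treated and 227, 253 and 154 control reads (log2 fold change -0.48, edgeR adjusted p = 0.0437). FANCA had far more reads than ZNF276, and its part in the ZNF276 count was not tested.

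Zinc finger genes also lie next to each other in clusters. RefSeq lists 5 pairs of members as successive genes, and no pair had both called. ZNF784 fell, with 15 treated and 86 control reads, while ZNF865 beside it had 9 and 8 and did not pass. ZNF583 fell, with 4 and 37 reads, while ZNF667 had 15 and 31 and did not pass. ZNF12 rose, with 56 and 26 reads, and ZNF316 had 9 and 1 (edgeR adjusted p = 0.0731). Whether the members of a pair differ in their change was not tested. Members share near-identical finger repeats, so reads could also be divided wrongly between them, and all values of single genes carry that uncertainty.

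Circular RNAs, closed by back-splicing of an exon end to an upstream start, were listed for 13 of the 87 genes, in 20 of the 3503 circRNA rows. These 20 held 23 treated and 49 control junction reads, the reads that cross the closing joint. The junction table as a whole held 1289 to 1586 reads in treated and 4807 to 6944 in control libraries. Per 1000 junction reads the circRNAs of the 87 genes took 3.54, 6.21 and 6.31 under treatment and 3.22, 3.46 and 1.46 without it, so each treated library was above each control library by this measure. That order rested on ZNF532, which held 18 of the 23 treated reads. In the treated libraries 3 of the 20 circRNAs were seen, in the controls 19, and 2 in both, beside 913, 2847 and 257 of all 3503. By type 13 were exonic, 3 antisense, 2 intronic and 2 sense overlapping.

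Only the circRNA of ZNF532 had at least 10 junction reads and was tested. It is an exonic circle of 804 nt deposited at chromosome 24, 58188981 to 58203217, plus strand, with no build stated in the sources used here. It had 5, 5 and 8 treated and 1, 0 and 0 control junction reads, so the groups did not overlap, while the controls had more junction reads in all. Its ratio was 40.1 with a 95% counting interval of 6.34 to 1672 after scaling (log2 fold change 4.71 ± 0.92 SE, edgeR adjusted p = 0.0103), and it was called in each alternative tried. Of the 360 circRNAs tested, 8.61% were higher and 6.94% lower. On unscaled junction totals the ratio was 72.8, with an interval of 11.5 to 3035, and its log2 fold change was 6.27 without control replicate 1 and 4.03 without control replicate 2, with adjusted p values of 0.000913 and 0.0167. The linear gene rose as well, with 36 treated and 11 control reads, as described above.

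The circRNAs of other members had few reads and were not tested. ZNF827 had 4 circRNAs with 7, 7 and 2 junction reads in the controls and none in the treated libraries, while its gene reads, 10 in all, were in the treated libraries alone. ZNF276 had an exonic circle of 305 nt (chromosome 18, 16004538 to 16005052, plus strand) with 0, 2 and 2 treated and no control reads, while its gene had 3 treated and 28 control reads. ZNF462 had 0, 7 and 1 junction reads in the controls and none in the treated libraries, beside 12 treated and 14 control gene reads. ZNF404 had an antisense circle of 168 nt (chromosome 18, 53131986 to 53132153, plus strand) with 2, 2 and 3 reads in the controls and none in the treated libraries, beside 4 treated and 48 control gene reads. Antisense circles of the same length, 168 nt, were also listed for ZNF12, ZNF572 and ZNF333. Zinc finger genes share near-identical finger repeats, and whether such junctions come from reads aligned across repeats was not tested. The treated libraries held fewer junction reads in all, as given above.

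**Figure D5:**
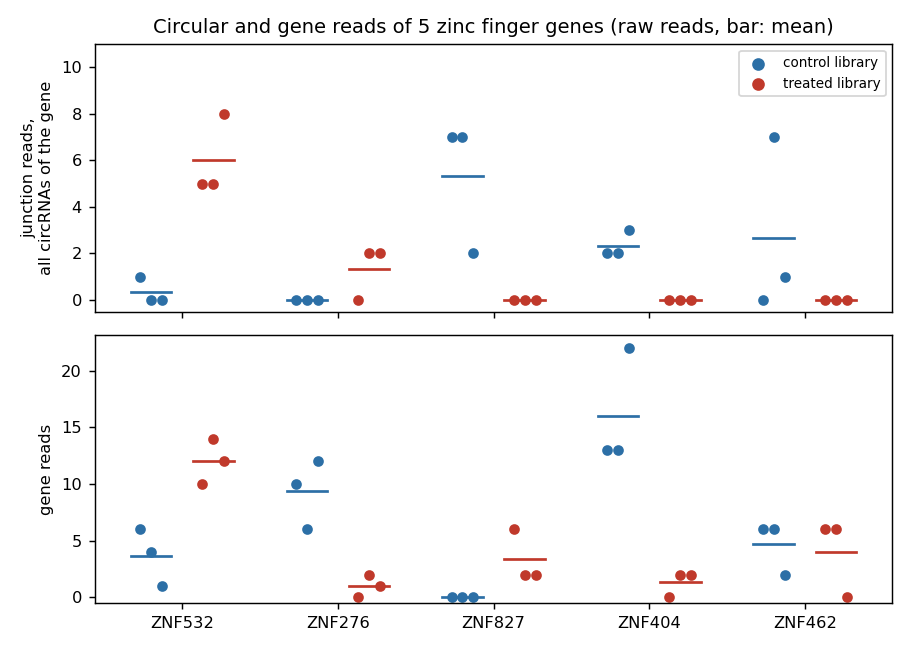
Back-splice junction reads summed over the circRNAs of a gene (upper panel) and gene reads (lower panel), as raw reads, for 5 zinc finger genes. Each point is a library, blue for control and red for treated, and bars are means of 3 libraries. In ZNF532 both were higher in treated cells, while in ZNF827 the junction reads (16 control, 0 treated) and the gene reads (0 control, 10 treated) lay in opposite groups.

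Zinc finger genes below the gene read minimum gave circRNAs too, and 3 of these had at least 10 junction reads. The circle of ZNF84 had 0, 1 and 1 treated and 2, 4 and 4 control reads (edgeR adjusted p = 0.357). That of ZNF148 had none and 5, 4 and 2 (0.0671), and that of ZNF451 none and 0, 6 and 4 (0.114). None of the 3 passed. They were the only circRNAs of zinc finger names outside the 87 genes that were tested.

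Long noncoding RNAs (lncRNAs) were listed inside introns of ZNF521 and ZNF385D, both on the antisense strand. Since strand assignment is in doubt, their reads and intronic reads of the gene around them cannot be told apart. The lncRNA comparison was added after the data were seen. In ZNF521 the transcript ENSCHIT00000003682 (1351 nt) had 2, 1 and 1 treated and 43, 74 and 30 control reads, a log2 fold change of -3.70 ± 0.62 (SE, edgeR adjusted p = 1.76e-07). ENSCHIT00000003681 (1102 nt) in the same gene had 0, 1 and 1 against 23, 20 and 29 (log2 fold change -3.69 ± 0.84 SE, edgeR adjusted p = 0.000163; 0.0543 without control replicate 1). Of the 201 lncRNAs tested, 22.4% were lower and 13.9% higher. The gene ZNF521 itself had 1 treated and 15 control reads and did not pass, as given above.

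In ZNF385D the transcript ENSCHIT00000006029 (1081 nt) had 16, 12 and 20 treated and 9, 5 and 2 control reads. Its log2 fold change was 2.93 ± 0.53 (SE, edgeR adjusted p = 9.51e-07) with scaling, 3.61 without control replicate 1, and -0.40 (adjusted p = 0.579) with no scaling factor, so its direction depends on the scaling. A single lncRNA took 90.2% to 93.2% of lncRNA reads under treatment and 2.11% to 25.3% without it, and with that lncRNA taken out and no scaling factor the log2 fold change was 2.99. The gene ZNF385D had 1, 0 and 0 treated and 4, 8 and 4 control reads, opposite to the reads of this transcript, and did not pass (edgeR adjusted p = 0.0749).

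Of 27 listed corepressors and cofactors that KRAB proteins recruit 16 were tested, of which 4 (25%) rose, 3 (18.8%) fell and 9 failed to pass, beside 15.4% and 17.6% of all genes. Their median log2 fold change was 0.28. TRIM28, which binds the KRAB domain, had 14, 18 and 10 treated and 2, 6 and 9 control reads (log2 fold change 1.88 ± 0.61 SE, edgeR adjusted p = 0.0196), and its call was lost without control replicate 1, control replicate 2 or treated replicate 2 (up to 0.0891). SETDB1, which methylates histone H3 lysine at TRIM28-bound sites, had 7, 20 and 16 against 2, 4 and 0 (log2 fold change 3.40 ± 0.75 SE, edgeR adjusted p = 0.00113). In both genes the treated libraries lay above the controls, and both have a RefSeq neighbour within 1 kb, CHMP2A and CERS2. MPHOSPH8, a subunit of the HUSH silencing complex, fell, with 6, 4 and 5 treated and 24, 38 and 23 control reads (log2 fold change -1.85 ± 0.50 SE, edgeR adjusted p = 0.00632).

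DNA methylation genes gave 3 rises (27.3%), 1 fall (9.09%) and 7 genes not past among 11 tested of 14 listed, beside 15.4% and 17.6% of all genes. UHRF1, which brings DNMT1 to replicated DNA, had 15, 5 and 14 treated and 1, 0 and 0 control reads (edgeR adjusted p = 0.000321), and TET3, a 5-methylcytosine oxidase, 4, 4 and 3 against none (edgeR adjusted p = 0.013). MBD1, a reader of methylated DNA, was higher with 4, 5 and 2 against 1, 0 and 0 (edgeR adjusted p = 0.0414), a call lost without control replicate 2 or 3 or treated replicate 1 or 2 (up to 0.135).

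Of 40 C2H2 factors of other names tested, 6 (15%) rose, 4 (10%) fell and 30 did not pass, beside 15.4% and 17.6% of all genes. SALL2 rose, with 15, 11 and 9 treated and no control reads, 17.9-fold against the floor (edgeR adjusted p = 7.57e-05). HIC1 rose as well, with 33, 13 and 28 against 0, 7 and 0 (edgeR adjusted p = 8.35e-05). So did GLI2, a mediator of Hedgehog signalling, with 12, 3 and 4 against none (edgeR adjusted p = 0.00282). ZFHX4 fell, with 29, 34 and 27 against 84, 110 and 76 (log2 fold change -0.96 ± 0.26 SE, edgeR adjusted p = 0.00641). Of 12 BTB domain zinc finger genes tested 3 (25%) rose and 5 (41.7%) fell. ZBTB12 fell with no treated and 4, 9 and 8 control reads (edgeR adjusted p = 0.0108), a call kept without each library in turn. ZBTB17, a partner of MYC, fell with 2, 1 and 1 against 6, 12 and 88 reads, most of them in control replicate 3 (edgeR adjusted p = 0.00101, and 0.138 without that library). ZBTB20 rose with 12, 4 and 11 against 0, 5 and 0 (edgeR adjusted p = 0.0138), a call lost without control replicate 1 or treated replicate 1 (up to 0.060).

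Of 32 genes listed for zinc transport and storage 9 were tested, with 1 higher (11.1%), 3 lower (33.3%) and 5 not past. The 3 lower genes include MTF2, which is no such gene, as given below. Of all genes 15.4% were higher and 17.6% lower, and whether the shares differ was not tested. The zinc importers SLC39A10, with no treated and 12, 12 and 9 control reads, and SLC39A1, with 2, 0 and 0 against 12, 14 and 6, were lower (edgeR adjusted p = 0.00187 and 0.0190). The SLC39A1 call was lost without control replicate 1 or 2 or treated replicate 2 or 3 (up to 0.0622). SLC39A13, another transporter of that family, was higher, with 5, 1 and 6 treated and no control reads (edgeR adjusted p = 0.0122). MTF2, a Polycomb-associated protein kept on this list by its name, was lower with 1, 0 and 4 against 13, 25 and 3 reads, with overlapping libraries (edgeR adjusted p = 0.0439), and was lost without control replicate 1 or 2 or treated replicate 1 or 2 (up to 0.271).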

How the data were processed

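The authors deposited 3 tables for the 6 libraries with raw counts per gene, back-splice junction read counts per circRNA and raw counts per lncRNA, per the file headers. BWA, CASAVA 1.8 and hg19, a human build, are named per the submitters' processing notes. The sources used here do not give the read counter, its strand setting, the annotation or the circRNA caller. The gene table carries no coordinates, and circRNA positions are printed as deposited, starting from 1, with no build. The 18 normalized per-library columns were not used. Groups were taken from the labelled treatment. The members, the gene lists and the tests were chosen with earlier results of these data known.

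Every gene, circRNA or lncRNA with at least 10 reads over the 6 libraries entered a quasi-likelihood fit in edgeR 4.0.16 under R 4.3.3 (glmQLFit, glmQLFTest, TMM, group as the only term). Library size was its table's total, and p-values were adjusted over the table by Benjamini and Hochberg with a threshold of 0.05. This minimum was chosen so that all 87 zinc finger genes are tested, and filterByExpr was an alternative. TMM factors ranged from 0.723 to 1.19 for genes, and the common biological coefficient of variation was 0.371. Scaled CPM are counts per 1000000 of the scaled library size. A standard error is the fitted log2 change over the root of its F value. Where a group had no read, 3 reads over that group served as a floor for the fold, with the other group's reads taken as exact. Where it had 1 to 3 reads, a ratio with a 95% exact counting interval is given. The lncRNA test, and the shares without the 4 most counted members, were added after the data were seen. The fits were tested on simulated counts.

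Members named are the 12 largest rises and 12 largest falls among genes past the threshold whose libraries do not overlap, the 8 most counted by mean scaled CPM, those with a circRNA of at least 10 junction reads, and all members of a list of genes with a known role. For other lists up to 4 genes with the smallest p are named. Certain genes that it selects are left out of the text but stay in the list counts. KRAB and SCAN domains were assigned from the human proteins after the data were seen. RefSeq (assembly ARS1.2) matched 81 members by symbol or gene number and was used for neighbours only, meaning genes that overlap or lie within 1 kb. No sequences are printed. Library pairs within a group differed beyond sampling noise (chi-square per degree of freedom 2.71 to 8.17). Tried in turn as alternatives were no scaling factor, DESeq2 size factors, a mean count of at least 10, filterByExpr, no filter, genes without a neighbour, the table without its 10 most counted genes, the DESeq2 1.42.0 Wald test, the replicate number as a block, scaling of circRNAs and lncRNAs by the gene table, and leaving out each library. Python 3.11.15, pandas 2.3.3 and scipy 1.17.1 were used.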

Additional observations from a re-analysis of the deposited data

How the results depend on the processing

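Of the 27 zinc finger genes past the threshold, 12 passed under every alternative that tested them, ZNF395, ZNF532, ZNF777 and ZNF789 among the rises and ZFP30, ZNF214, ZNF404, ZNF546, ZNF687, ZNF750, ZSCAN16 and ZSCAN29 among the falls, and 15 lost their call at least once. Against 11 higher and 16 lower, filterByExpr gave 5 and 9 of 21 tested, a mean count of at least 10 gave 3 and 8 of 16, and the DESeq2 Wald test gave 5 and 10, all 15 of them shared with the calls reported. The first 2 tested fewer genes; the cause of the difference from DESeq2 was not tested. Leaving out 1 library gave 7 to 12 higher and 9 to 17 lower. The adjusted p values given above for lost calls are mostly from fits without 1 library, and several of these calls were also lost in other alternatives. Over all genes, against 1017 higher and 1163 lower, the counts were 534 and 574 with filterByExpr, 495 and 470 with a mean count of at least 10, 333 and 438 among genes without a neighbour, and 675 lower by DESeq2. The 56 circRNA calls became 15 with filterByExpr, of 22 tested, 35 with no filter, 33 with the replicate block, 175 with scaling by the gene table and 32 to 153 without 1 library, while the single call among zinc finger circRNAs was kept in each. The median log2 fold change of -0.67 was -1.01 with no scaling factor and -0.15 with filterByExpr, and ranged from -1.02 to -0.28 without 1 library. With no scaling factor and with filterByExpr the medians of all genes were -0.35 and -0.02. The read share ratio of 0.571 was 0.830 without the 10 most counted genes, 0.747 without the 4 most counted members and 1.09 without both. The lncRNA ENSCHIT00000006029 in ZNF385D turned from 2.93 to -0.40 (log2) with no scaling factor. Replicate numbers did not pair the libraries (correlations of same-numbered deviations 0.00523, -0.00537 and -0.00975), and with the replicate block 8 members were higher and 12 lower, all 20 shared with the calls reported. With 24 reads for the median member, small changes were out of reach.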
